A study of Mus musculus with 8 samples.

Results

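Cholesterol homeostasis in mouse embryonic fibroblasts (MEFs, connective tissue cells cultured out of mouse embryos) was examined through 32 genes picked by name. They cover the mevalonate and sterol synthesis enzymes (18 genes), the control of the SREBP transcription factors (5), intracellular sterol transport (3), the LXR receptors and sterol efflux pumps (4) and oxysterol enzymes (2). All 32 symbols were present among the 24015 gene symbols of each count table. The RNA-seq set compared 2 untreated libraries with 2 libraries from MEFs given 100 units/mL of murine recombinant interferon-beta (IFN-beta) for 6 h. All 4 libraries came from wild type cells on a C57bl/6 background, taken at E12.5 and used at passages 15 to 18, and grown with 10% serum. The series title describes mice carrying a tagged histone H3.3, and the design pairs H3.3 chromatin maps with transcripts in the interferon response. The 4 chromatin samples were not analysed here. The labels do not state whether the replicates are separate cultures, and the p-values below cover library-to-library spread alone, possibly of technical origin.

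Animal cells make cholesterol from acetyl-CoA through mevalonate and squalene, and take up more of it from lipoproteins that are broken down in lysosomes. When membrane sterol is low, SCAP escorts SREBP proteins out of the endoplasmic reticulum for cleavage, and the released fragments switch on synthesis and uptake genes; when sterol is high, INSIG proteins hold the complex back. Oxysterols, such as 25-hydroxycholesterol made by CH25H, promote that retention and activate the LXR receptors, which drive efflux through ABCA1 and ABCG1. CH25H is a textbook interferon-stimulated enzyme, best known from macrophages.

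Promoter windows, from 250 bases before to 50 after a transcription start, were found for 25 of the 32 genes in the RefSeq table (GRCm38.p6), in 34 windows. Of these, 5 are shown. Ch25h and Npc2 are the 2 induced genes, Hmgcs1 holds the only match to the sterol regulatory element searched here, and Mvk and Msmo1 are synthesis genes picked for holding several CCAAT letters (Acat2 holds none). Each is printed 5′ to 3′ on the strand of its gene, before the start and outside the span of any neighbouring gene. Capitals mark CCAAT or its reverse complement ATTGG, the letters bound by the factor NF-Y, and in Hmgcs1 also TCACCCCAC, a match to the sterol regulatory element TCACNCCAC bound by SREBP.
Ch25h promoter, chr19:34475149-34475398, minus strand: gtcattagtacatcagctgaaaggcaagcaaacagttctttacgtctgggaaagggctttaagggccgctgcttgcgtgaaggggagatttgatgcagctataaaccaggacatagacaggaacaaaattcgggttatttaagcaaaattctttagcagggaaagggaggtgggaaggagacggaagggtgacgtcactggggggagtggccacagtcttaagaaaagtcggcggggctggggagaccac
Npc2 promoter, chr12:84773113-84773229, minus strand: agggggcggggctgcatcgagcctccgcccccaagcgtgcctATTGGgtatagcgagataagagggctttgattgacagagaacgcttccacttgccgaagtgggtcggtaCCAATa
Hmgcs1 promoter, chr13:119690101-119690350, plus strand: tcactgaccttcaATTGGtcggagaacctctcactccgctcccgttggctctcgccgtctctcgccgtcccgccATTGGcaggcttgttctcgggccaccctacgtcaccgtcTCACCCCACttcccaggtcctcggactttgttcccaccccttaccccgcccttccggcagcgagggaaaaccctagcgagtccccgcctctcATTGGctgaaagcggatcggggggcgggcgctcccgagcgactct
Mvk promoter, chr5:114444074-114444263, plus strand: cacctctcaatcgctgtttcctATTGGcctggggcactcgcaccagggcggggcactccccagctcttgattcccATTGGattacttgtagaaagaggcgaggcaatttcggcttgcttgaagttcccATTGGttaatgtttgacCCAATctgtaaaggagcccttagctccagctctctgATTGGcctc
Msmo1 promoter, chr8:64733579-64733828, minus strand: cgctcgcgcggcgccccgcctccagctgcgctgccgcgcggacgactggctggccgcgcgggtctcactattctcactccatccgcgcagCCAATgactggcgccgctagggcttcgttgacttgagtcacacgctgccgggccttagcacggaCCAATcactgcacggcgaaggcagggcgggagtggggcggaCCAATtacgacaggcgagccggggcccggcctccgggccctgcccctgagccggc

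Searched on both strands, CCAAT was present in 20 of the 34 windows (58.8%), against 37.4% of all 32851 windows of the same length in the table. The E-box CACGTG was in 7 windows (20.6%, against 7.15% of all), those of Abca1, Dhcr7, Hsd17b7, Insig1, Sc5d and Scap. Scap held it in both of its 2 windows, and whether these overlap was not checked. Shares are of windows, and some genes have several. Among the 25 genes with a window, TCACNCCAC was in that of Hmgcs1 alone (2.94% of the 34, against 1.24% of all). Fdps, Fdft1, Sqle, Stard4, Abcg1, Cyp7b1 and Npc1 had no window and were not searched. The core of the interferon-stimulated response element (GAAA, any 2 bases, GAAA) and TTCNNNGAA, the core of a STAT site, were each in a single window, that of Ebp (2.94%, against 3.44% and 8.3% of all). None of the 5 motifs lay in the Ch25h window, which says only that these letters are not in this stretch. Npc2 held CCAAT and ATTGG and no other. Overlapping matches were each counted, and a match describes letters, not binding.

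Depth was 18528685 and 24817342 gene counts in untreated replicates 1 and 2, and 18901845 and 20714161 in the treated ones. Untreated replicates differed from each other more than IFN-beta replicates did, with a chi-square per gene of 32.33 against 11.47. The interferon controls Isg15 and Ifit1, both canonical targets, rose by 8.87 and 10.60 on the log2 scale. All 11 fibroblast markers were detected, led by the intermediate filament gene Vim, and none passed the test. Markers of adipocytes summed to 15.5 to 20.2 CPM (counts scaled to a library of 1000000) over the 4 libraries, and those of epithelium, liver and endothelium to at most 3.31 CPM. Endothelial markers summed to 1.14 CPM in each untreated library and to 3.31 and 2.02 CPM after IFN-beta, with Cdh5 called higher; the part of other cell types in the results below was not tested.

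Interferon-beta raised 2 of the 29 genes that had enough counts to test, Ch25h and Npc2, and lowered none. Across all 12128 tested genes, 4.73% were called higher and 0.495% lower, 5.23% in either direction (edgeR quasi-likelihood F test, Benjamini-Hochberg adjusted p below 0.05 over all tested genes), so 2 of 29 is close to the share among genes in general. DESeq2 and limma-voom also called 2 higher and 0 lower. Besides these, Sc5d had an unadjusted p below 0.05. The median log2 fold change, IFN-beta minus untreated, was 0.08 over the 29 genes and 0.02 over the 17 tested synthesis enzymes, beside -0.02 over all tested genes. For 26 of the 27 genes that did not pass, the 95% interval of the change lay within 2-fold in either direction, the exception being Cyp7b1. For 17 of them it lay within 1.5-fold. Of all tested genes, 11494 did not pass, with intervals within 2-fold for 9670 and within 1.5-fold for 5535. These intervals are per gene and are not adjusted for the number of genes.

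**Figure D1:**
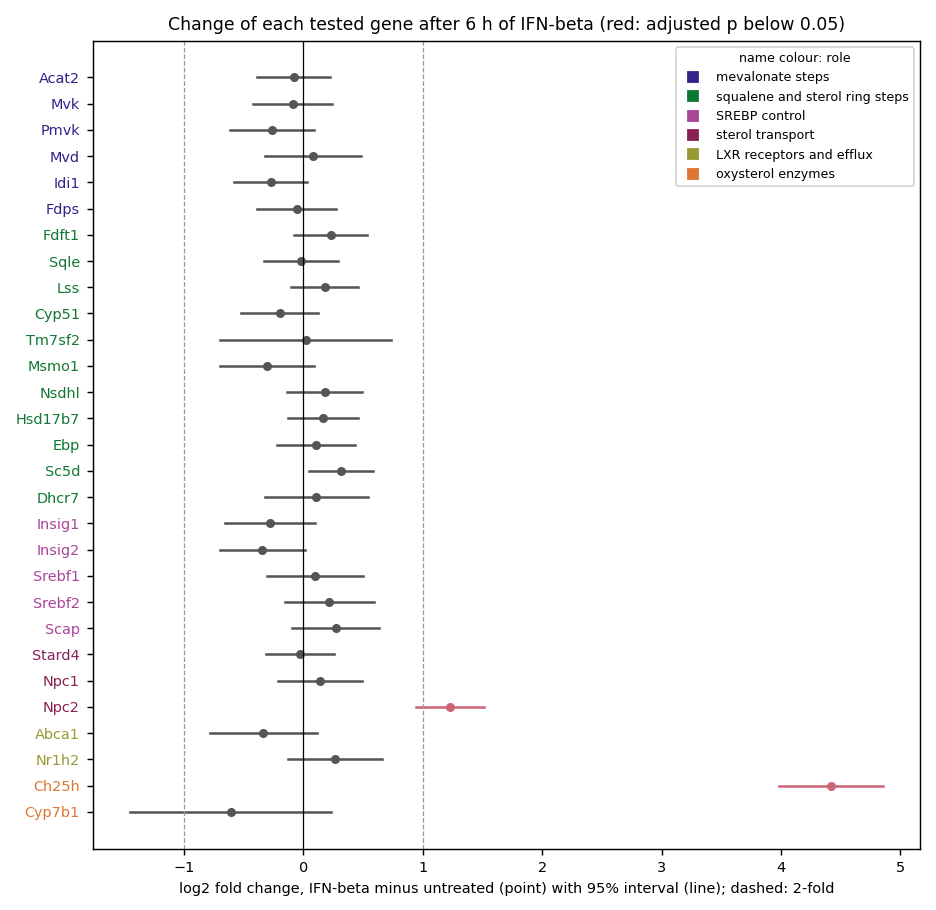
Log2 fold change after 6 h of IFN-beta (horizontal axis, IFN-beta minus untreated) for the 29 tested genes, as points with 95% intervals, with names coloured by role and dashed lines at 2-fold. Ch25h (4.42) and Npc2 (1.23), in red, stand to the right of a column of genes whose points lie between -0.61 and 0.32.

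Ch25h, which encodes cholesterol 25-hydroxylase, was the most strongly raised of the 29. It had 31 and 51 counts in the untreated libraries and 703 and 739 after IFN-beta. Scaled by TMM-adjusted library size to CPM, these were 1.61, 1.93, 39.4 and 37.2 CPM. Both treated libraries stood far above both untreated ones, and replicates were close. The log2 fold change was 4.42 ± 0.20 (SE, n = 2 per group), a fold of 21.4 with a 95% interval from 15.8 to 28.9 (edgeR adjusted p = 1.59e-07). Ch25h was called under each of the 13 alternative settings, with log2 fold changes from 4.27 to 4.57.

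Because Ch25h is also a macrophage gene, macrophage markers are given beside it. The 13 markers listed had a summed level of 26.5 and 19.8 CPM untreated and 37.9 and 35.7 CPM after IFN-beta. Only 1 of the 7 tested markers was called, Mpeg1, a macrophage-expressed pore protein gene that rose from 1.35 and 0.493 CPM to 15.2 and 17.8 CPM. The other 12 together were at 25.1 and 19.3 CPM untreated and 22.7 and 17.9 CPM after IFN-beta, so their sum overlapped between the groups. Marco was at 0 in every library, Aif1 had a single count in all, and the pan-leukocyte gene Ptprc stayed between 0.353 and 0.617 CPM. In bulk RNA, a change in the number of cells of a type and a change in RNA per cell cannot be told apart.

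Cyp7b1 encodes the oxysterol 7-alpha-hydroxylase, which inactivates 25-hydroxycholesterol and starts its conversion towards bile acids or signalling oxysterols. Its levels were 6.39 and 2.69 CPM untreated and 3.03 and 2.82 CPM after IFN-beta. The first untreated library was high and the other libraries were alike. The second untreated library lay below both treated ones, so the groups overlapped. The log2 difference was -0.61, with a 95% interval from -1.45 to 0.23 (edgeR adjusted p = 0.429). Without untreated replicate 2 it became -1.13 (adjusted p = 0.00019), and without untreated replicate 1 it became 0.14. Of the making and the removing enzyme of this oxysterol, Ch25h passed the test and Cyp7b1 did not; the difference between them was not tested.

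Npc2 encodes the small lysosomal protein that hands free cholesterol to the membrane protein NPC1 for export from the lysosome. It had 2556 and 3081 counts untreated and 5330 and 5671 after IFN-beta, or 133, 117, 299 and 286 CPM. The groups were far apart relative to their replicates. The log2 fold change was 1.23 ± 0.13 (SE, n = 2 per group), a fold of 2.34 with a 95% interval from 1.92 to 2.85 (edgeR adjusted p = 0.000154). It too was called under all 13 alternatives, between 1.08 and 1.35.

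The partner Npc1 was at 21.5 and 22.03 CPM untreated and 26.0 and 21.9 CPM after IFN-beta. The second treated library lay between the untreated ones, and the difference of 0.14 on the log2 scale did not pass (interval -0.22 to 0.49, edgeR adjusted p = 0.695). Stard4, a cytosolic carrier that moves sterol between membranes, was the steadiest of the group at 62.4, 59.1, 59.2 and 60.0 CPM (difference -0.03, interval -0.31 to 0.26).

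The early, mevalonate stretch of the synthesis pathway showed no called change. Of its 7 genes 6 were tested, and their median log2 difference was -0.09. Of the 6, 5 were below 0, beside 6385 of all 12128 tested genes. Both IFN-beta libraries lay below both untreated ones for Mvk, Pmvk and Idi1, a pattern seen in 26.8% of all tested genes. Idi1, the isopentenyl diphosphate isomerase, was at 503 and 418 CPM untreated and 362 and 399 CPM after IFN-beta (difference -0.28, interval -0.58 to 0.03, edgeR adjusted p = 0.329). Pmvk, phosphomevalonate kinase, was at 30.2, 28.6, 21.9 and 27.0 CPM in the same order (difference -0.26, interval -0.62 to 0.09). In both, the higher treated library lay near the lower untreated one.

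Mvk, mevalonate kinase, gave 26.5, 24.7, 24.7 and 23.4 CPM, a difference of -0.09. Acat2, the acetyl-CoA acetyltransferase that opens the route, gave 82.8, 71.7, 68.8 and 77.2 CPM (-0.08). Its treated and untreated values interleaved, as they did for the last genes of this stretch. Fdps, farnesyl diphosphate synthase, gave 292, 240, 231 and 280 CPM (-0.06), and Mvd, which makes isopentenyl diphosphate, gave 25.0, 19.3, 21.2 and 25.4 CPM (0.08). All 6 intervals stayed within 2-fold.

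Hmgcs1, the synthase that makes HMG-CoA and a standard SREBP target, was listed at 0 counts in every library. It is not alone there: it sits in a run of 10 successive listed genes, from Ccl28 through Nim1k and Zfp131 to Tcstv3, all at 0 in the 4 libraries, that ends at the last listed gene of chromosome 13 in RefSeq order. The 4 listed genes before the run all had counts, from 22 to 63 for Gm7120, the nearest, to 3020 to 4601 for Paip1. Of all 24015 symbols, 7281 (30.3%) were at 0 in every library. The cause of the run was not tested, and the listed 0 is not read here as a level of Hmgcs1 in these cells.

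From squalene onwards, 11 enzymes were all tested and none was called. Their median log2 difference was 0.11, and 8 of 11 were above 0, beside 5743 of all 12128 tested genes. With total library size in place of TMM, Tm7sf2, Ebp and Dhcr7 turned below 0. In 6 of the 11 both IFN-beta libraries lay above both untreated ones, beside 23.9% of all tested genes. Sc5d, the lathosterol oxidase near the end of the route, came nearest to a call, at 144 and 137 CPM untreated and 176 and 173 CPM after IFN-beta. Its replicates were close and its groups separate, yet the difference of 0.32 ± 0.12 (SE, n = 2 per group; interval 0.05 to 0.58) gave an edgeR adjusted p of 0.196. Fdft1, squalene synthase, was at 120, 100, 121 and 137 CPM (0.23, interval -0.08 to 0.54).

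The other 4 enzymes with separate groups differed by 0.11 to 0.18. Lss, the cyclase that forms lanosterol, was at 61.5, 65.2, 73.4 and 70.0 CPM. Nsdhl and Hsd17b7, partners in removing methyl groups from the ring, gave 34.7, 31.6, 35.9 and 39.1 CPM and 50.7, 48.0, 57.1 and 53.4 CPM. Ebp, the sterol isomerase, gave 23.3, 24.5, 25.1 and 26.5 CPM. Each separation was small next to its own interval, which included 0.

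The 3 enzymes below 0 were Msmo1, Cyp51 and Sqle, and in all of them the first untreated library was the highest of the 4. Msmo1, the sterol C4 methyl oxidase, was at 562 and 392 CPM untreated and 355 and 417 CPM after IFN-beta (-0.30, interval -0.70 to 0.09, edgeR adjusted p = 0.399). Cyp51, the lanosterol demethylase, was at 549, 440, 410 and 451 CPM (-0.20). Sqle, squalene epoxidase and a rate-limiting step, was at 262, 215, 222 and 248 CPM (-0.02, interval -0.33 to 0.29).

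Dhcr7, the reductase of the last step to cholesterol, was at 8.004, 8.99, 8.35 and 9.98 CPM (0.11), and Tm7sf2, a sterol reductase with 37 to 58 counts, at 3.02, 1.90, 2.07 and 2.82 CPM (0.02, interval -0.70 to 0.74). Over all 17 tested enzymes, each interval lay within 2-fold and 14 lay within 1.5-fold, the exceptions being Pmvk, Tm7sf2 and Msmo1. Their summed level was 2777.7 and 2265.9 CPM untreated and 2214.5 and 2459.6 CPM after IFN-beta, so the first untreated library was the highest and the others overlapped. The median of 0.02 depends on scaling: with total library size in place of TMM it was -0.12, while the median of all genes moved to -0.16.

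Among the 5 genes of SREBP control none was called. Insig1, itself a SREBP target that retains the SREBP complex, was at 196 and 135 CPM untreated and 140 and 133 CPM after IFN-beta (-0.28, interval -0.66 to 0.10). Insig2, the isoform less dependent on SREBP, was at 24.2, 21.8, 17.0 and 19.2 CPM (-0.34, interval -0.70 to 0.01, edgeR adjusted p = 0.292). Of the 5, only Insig2 had both treated libraries below both untreated ones, as did 26.8% of all tested genes. In Insig1 the second untreated library fell between the treated ones.

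The transcription factor genes Srebf1 and Srebf2 and the escort gene Scap had point estimates above 0. Srebf2, the main driver of cholesterol genes, was at 67.5 and 95.3 CPM untreated and 98.4 and 91.2 CPM after IFN-beta (0.22, interval -0.16 to 0.59). Scap was at 26.6, 35.3, 37.1 and 37.6 CPM (0.27, interval -0.10 to 0.64), and Srebf1, which leans towards fatty acid genes, at 16.4, 21.4, 19.1 and 21.4 CPM (0.10). Only in Scap did both treated libraries lie above both untreated ones, as in 23.9% of all tested genes. In all 3 the first untreated library was the lowest, the reverse of Insig1 and Msmo1. The spans of Srebf1 and Rai1, and of Srebf2 and its intronic microRNA gene Mir33, overlap in the annotation. So do those of Fdft1 with Ctsb, Lss with 4930483K19Rik, Tm7sf2 with Vps51, Nr1h3 with Acp2 and Npc1 with 3110002H16Rik. Only whole gene spans were compared, and whether exons are shared was not checked. With the strand setting unknown, reads from a stretch shared by exons could not be told apart.

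Of the LXR genes, Nr1h2 (LXR-beta, the widely expressed receptor) was at 9.82, 11.4, 12.95 and 12.6 CPM (0.26, interval -0.13 to 0.66). Abca1, an LXR target that loads cholesterol onto apolipoproteins, was at 9.36, 7.58, 6.501 and 6.85 CPM (-0.34, interval -0.79 to 0.11, edgeR adjusted p = 0.412). Both treated libraries were thus above both untreated ones for the receptor and below them for the pump. Those patterns were seen in 23.9% and 26.8% of all tested genes, and neither gene passed the test. Nr1h3 (LXR-alpha) had 1, 3, 2 and 0 counts and was not tested (ratio of depth-scaled counts 0.605, exact 95% interval 0.0547 to 4.22). Abcg1, the second efflux pump, had 3, 4, 10 and 6 counts and was not tested either. Its ratio was 2.77, with an exact interval from 1.08 to 7.95 that covers counting error only, and with no count filter its edgeR adjusted p was 0.395.

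Differences between replicates were as large as those between groups for many of these genes. Untreated replicate 2 was below replicate 1 in 14 of the 17 tested enzymes (82.4%, against 49.1% of all tested genes), with a median log2 ratio of -0.21. IFN-beta replicate 2 was above replicate 1 in 13 of 17 (76.5%, against 50.3% of all), with a median of 0.16. The largest untreated gaps among enzymes and their regulators were -0.67 for Tm7sf2, -0.53 for Insig1 and -0.52 for Msmo1, while Srebf2, Scap and Srebf1 gave 0.50, 0.41 and 0.39 the other way. For 16 of the 29 tested genes (55.2%) the untreated gap exceeded the difference between groups, a share near the 53.9% of all tested genes.

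**Figure D2:**
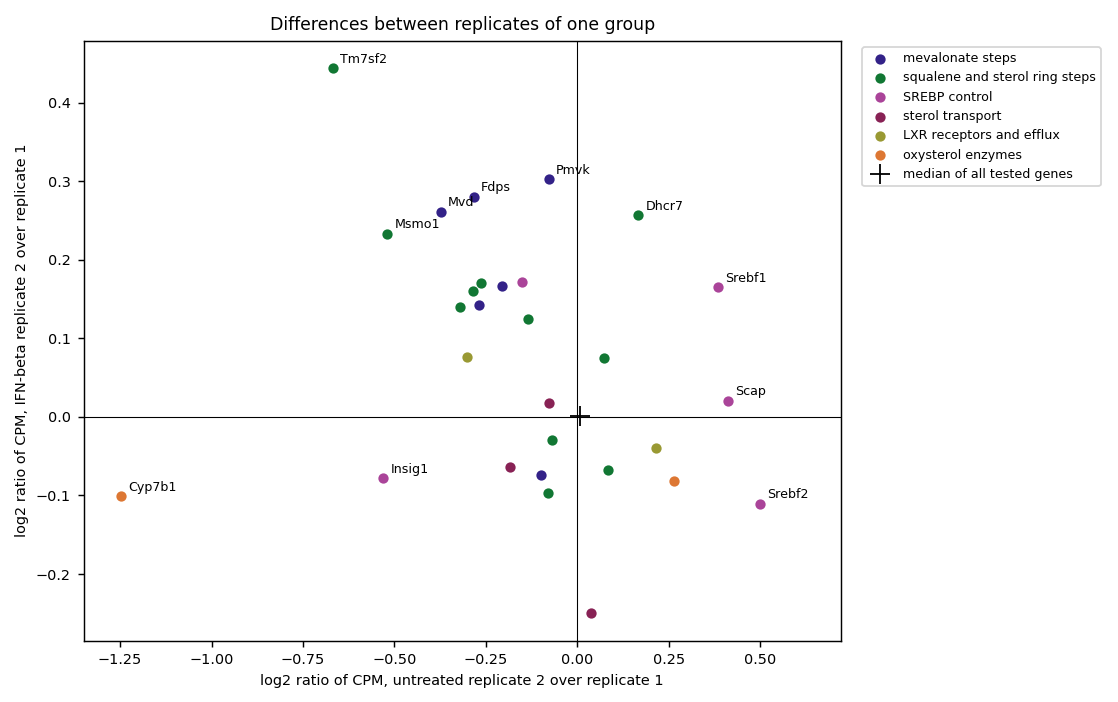
Log2 ratio of replicate 2 over replicate 1 for each of the 29 tested genes, untreated on the horizontal axis and IFN-beta on the vertical axis, coloured by role; the cross is the median of all tested genes. Most synthesis enzymes lie in the upper left, lower in untreated replicate 2 and higher in IFN-beta replicate 2, whereas Srebf1, Srebf2 and Scap lie on the right.

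Calls among the synthesis and SREBP genes depended on which untreated library was kept, as did calls over all genes. Without untreated replicate 2, 15.3% of all tested genes were called higher and 14.0% lower, and of 30 genes tested here 4 were higher and 6 lower, near those shares. Idi1 (-0.40), Cyp51 (-0.35), Msmo1 (-0.54), Insig1 (-0.52) and Insig2 (-0.42) were then called lower, as was Cyp7b1, and Srebf2 (0.49) and Scap (0.49) higher besides Ch25h and Npc2. Without untreated replicate 1, 6.91% of all tested genes were called higher and 1.82% lower. None of the 30 was then called lower, and Fdft1 (0.39, edgeR adjusted p = 0.0403) and Sc5d (0.37, adjusted p = 0.0498) were called higher besides Ch25h and Npc2. Msmo1 and Insig1 then stood at 0.00 and 0.03. In such fits the lone untreated library is assumed to vary like the IFN-beta pair, whose replicates were closer together. Leaving out either IFN-beta library added no call among the members.

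Other genes of sterol and fatty acid metabolism were followed through 6 lists of 125 symbols that hold none of the 32. Of 106 tested, 6 were called higher and none lower (edgeR, where 16 had an unadjusted p below 0.05 and DESeq2 called 1 lower), beside 4.73% and 0.495% of all tested genes, and their median log2 difference was 0.02. Of these, 4 belonged to the list of sterol uptake, storage and transfer (34 tested). These were Scarb2, Stard3, Stard5 and Lipa.

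Scarb2, a lysosomal membrane protein gene, was at 47.7 and 37.8 CPM untreated and 84.5 and 82.1 CPM after IFN-beta, a rise of 0.96 ± 0.15 (SE; edgeR adjusted p = 0.00288). Stard3, which tethers late endosomes to the endoplasmic reticulum and passes sterol between them, rose by 1.01 from 8.11 and 11.3 to 18.7 and 20.7 CPM (edgeR adjusted p = 0.0133). Stard5, a cytosolic sterol and bile acid binding protein gene, rose by 1.11 from 2.50 and 2.12 to 4.65 and 5.24 CPM. Lipa, the lysosomal acid lipase that frees cholesterol from its esters, rose by 0.65 from 34.4 and 28.0 to 49.2 and 48.2 CPM (edgeR adjusted p = 0.0333). Scarb2 and Stard3 were called under all 13 alternatives and Stard5 and Lipa under 9. Without IFN-beta replicate 1 or 2, the edgeR adjusted p was 0.0828 or 0.209 for Stard5 and 0.201 or 0.116 for Lipa.

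The remaining calls were Arl4c, an LXR-responsive small GTPase gene, and Rnf139, a sterol-responsive ubiquitin ligase gene of the endoplasmic reticulum. Arl4c rose by 0.97 from 76.6 and 81.5 to 160 and 149 CPM (edgeR adjusted p = 0.000789) and was called under all 13 alternatives. Rnf139 rose by 0.53 from 88.2 and 79.6 to 115 and 126 CPM (adjusted p = 0.045) and was called under 8; without IFN-beta replicate 1 or 2 its adjusted p was 0.174 or 0.372. The LXR list otherwise had 14 tested genes without a call, among them Tgm2 (0.22).

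Several genes came close without passing. Syvn1, a ubiquitin ligase of the endoplasmic reticulum, was at 4.99, 8.38, 13.8 and 12.6 CPM (0.96, edgeR adjusted p = 0.0517), and Soat1, which esterifies cholesterol for storage, at 170, 293, 407 and 357 CPM (0.72, adjusted p = 0.107). Scd2, a fatty acid desaturase and SREBP target, was at 594, 572, 396 and 454 CPM (-0.46, adjusted p = 0.0875). Under the 13 alternatives Syvn1 was called in 9, as often as Stard5 and Lipa, Soat1 in 6 and Scd2 in 5; DESeq2 called all 3, with adjusted p of 0.0128, 0.0135 and 0.0457. Also not called were Lpin1, a phosphatidate phosphatase gene (-0.82), the prenyltransferase subunit genes Fnta (-0.45) and Rabggtb (-0.28), the segregase gene Vcp (0.24), the oxysterol-binding protein gene Osbpl3 (0.47) and the racemase gene Amacr (0.28). The fatty acid list had 20 tested genes and a median of -0.03, the isoprenoid list 17 and 0.04, the sterol sensing list 15 and 0.04. Of 16 other oxysterol and bile acid genes only 5 had enough counts to test and none was called; the lowest p among them was that of Cyp39a1, another oxysterol hydroxylase (-0.64, adjusted p = 0.252).

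**Figure D3:**
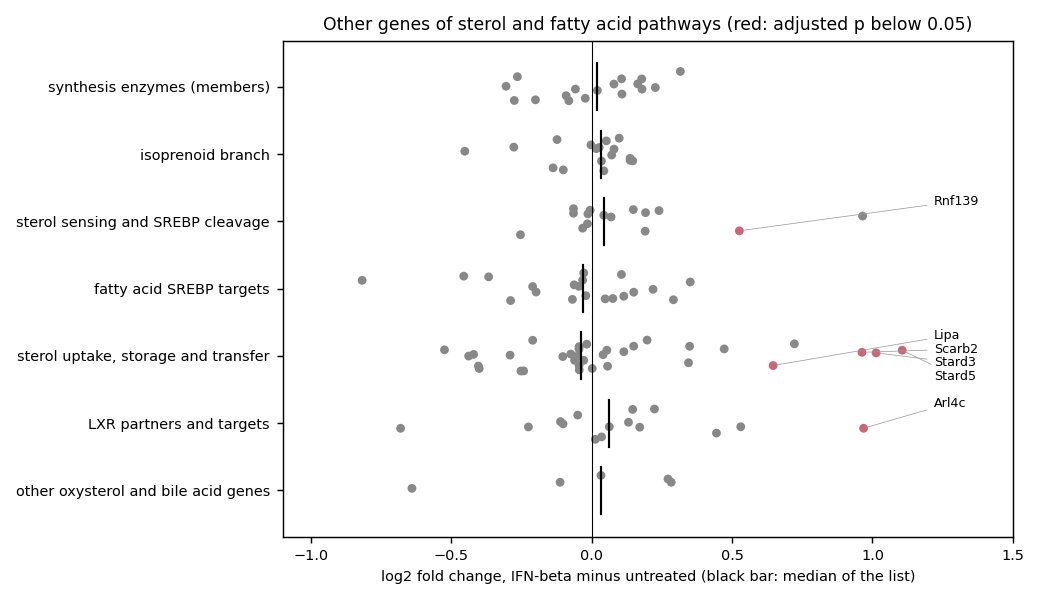
Log2 fold change (horizontal axis, IFN-beta minus untreated) of each tested gene in the synthesis enzymes and the 6 other lists, with a black bar at each list's median and called genes in red. The medians lie within 0.10 of 0 in all 7 rows, and the 6 red points, all on the right, are Rnf139, Lipa, Scarb2, Stard3, Stard5 and Arl4c.

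Gene order around the induced members was read from RefSeq, and those neighbours were picked with their values in view. On chromosome 19, Ch25h lies between Fas and Lipa, with Ifit2, Ifit3 and further Ifit-family genes beyond Lipa. All 5 coding genes on the Lipa side were called higher, by 0.65 for Lipa, 2.57 for Ifit2, 10.28 for Ifit3 and 5.63 for Gm14446; the last, I830012O16Rik, went from 0 and 3 counts to 7086 and 7950. On the other side Fas (-0.18) and Acta2 (0.27) were not called and Stambpl1 was (0.73, edgeR adjusted p = 0.00828). Around Npc2 on chromosome 12, Arel1 was called higher (0.82, adjusted p = 0.0101), while the adjoining Isca2 was not (0.50, adjusted p = 0.177). The spans of Ch25h and Npc2 overlap no other listed gene.

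**Figure D4:**
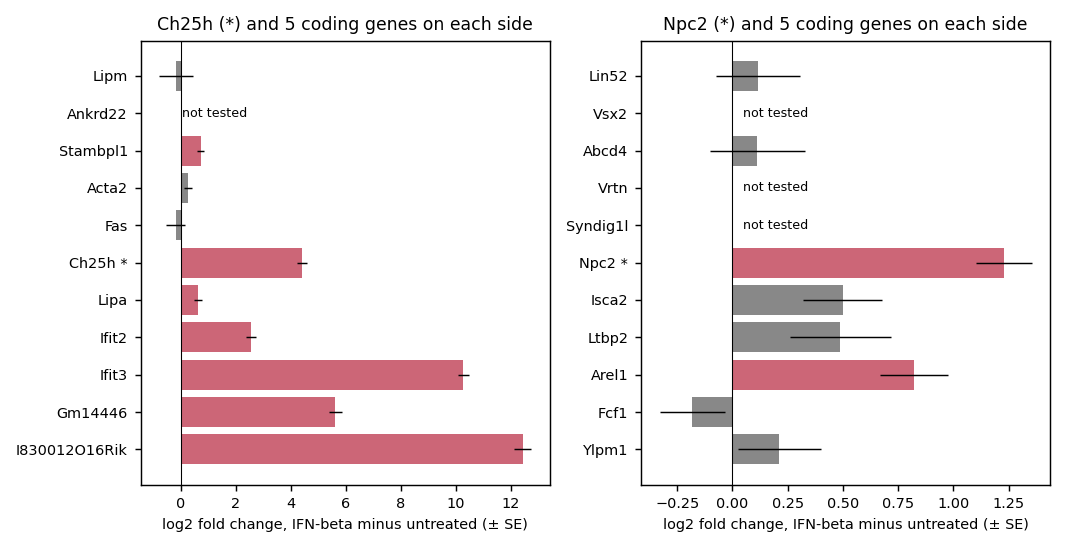
Log2 fold change with SE (IFN-beta minus untreated) of Ch25h and Npc2 and the 5 coding genes on each side in RefSeq order, called genes in red. The 5 genes after Ch25h are all red; the bar of I830012O16Rik is a fitted value that rests on 3 untreated counts.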

How the data were processed

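Gene-level read counts from 4 RNA-seq libraries were used as the authors deposited them, 1 table per library, not normalized. Per the labels' protocols, libraries came from Trizol-isolated RNA (TruSeq kit). The submitters' processing notes name TopHat2 2.0.13, HTSeq 0.7.2 and the mm9 build. Which annotation and strand mode served for counting is not given in the sources used here. The 5 summary lines per table that name no gene were left out; genes took 38.7% to 42.7% of all records.

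Tests used edgeR 4.0.16 in R 4.3.3 (quasi-likelihood, TMM, default filter with minimum count 10 and total 15, group as the only term) on all 12128 genes that passed. SE is the log2 fold change divided by the square root of F. An exact permutation test on 2 against 2 libraries cannot go below p = 0.333 and was not used. The 13 alternatives covered scaling, filters, DESeq2 1.42.0, limma-voom (limma 3.58.1), a replicate block, leaving out Rn45s, Lars2 and Mir6236, and each library left out. The procedure was also run on counts simulated with the same spread in both groups, which does not cover the unequal replicate spread seen here.

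The genes and lists were chosen with earlier results of these data known. The text names all 32 genes, called list genes up to 4 per list, the 2 lowest p values not called in each list, and interferon controls, except for a few genes that are not reported here; other names were chosen after their values were seen. Motifs were searched in RefSeq promoters (GRCm38.p6), which is not the build of the counts. No lengths were used, so levels are not compared between genes.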

Additional observations from a re-analysis of the deposited data

How the results depend on the processing

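Ch25h and Npc2 stayed called higher under all 13 alternatives, and no other of the 29 tested genes was called except with an untreated library left out. Leaving out 1 library gave 2 to 4 of the members higher and 0 to 6 lower, 470 to 1885 of all genes higher and 24 to 1728 lower, 3 to 19 list genes higher and 0 to 9 lower, and enzyme medians from -0.14 to 0.12; the adjusted p-values of those fits rest on the spread of the other group. All genes called lower, 60 in the fit reported, were 350 with total library size, 128 with upper quartile scaling, 381 with no filter and 103 with DESeq2; those called higher, 574, were 863 with no filter. List genes called higher were 3 with total library size, and list genes called lower were 1 with total library size, 3 with no filter and 1 with DESeq2. The enzyme median was -0.12 with total library size and -0.052 with upper quartile scaling, where the median of all genes was -0.16 and -0.09.

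Signs turned only among genes that were not called. With total library size these were Mvd (-0.062), Tm7sf2 (-0.12), Ebp (-0.037), Dhcr7 (-0.036), Srebf1 (-0.05) and Npc1 (-0.0076), and with upper quartile scaling Tm7sf2 (-0.052). Leaving out 1 library gave ranges that crossed 0 for Acat2 (-0.18 to 0.049), Mvd (-0.10 to 0.30), Fdps (-0.20 to 0.11), Sqle (-0.16 to 0.15), Tm7sf2 (-0.29 to 0.40), Msmo1 (-0.54 to 0.0021), Dhcr7 (-0.025 to 0.23), Insig1 (-0.52 to 0.033), Srebf1 (-0.057 to 0.31), Stard4 (-0.065 to 0.036) and Cyp7b1 (-1.13 to 0.14). The cause was not tested. Rnf139, Stard5 and Lipa lost their call without either IFN-beta library and with total library size, Rnf139 and Lipa also with upper quartile scaling (adjusted p = 0.0846 and 0.0617), and Stard5 with DESeq2 (adjusted p = 0.0507).

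Replicate numbers are shared by the groups but nothing says that they pair the libraries, and the differences between replicates 1 and 2 of each group correlated at -0.03 over 12128 genes. With a replicate block, 2 of the 29 were higher and 0 lower, the enzyme median was 0.03, and 692 of all genes were higher and 155 lower. The block ended the call of Rnf139 (adjusted p = 0.0713) and brought Syvn1 (adjusted p = 0.00179) and Soat1 (adjusted p = 0.00711) past the threshold.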
